A study of Mus musculus with 36 samples.

Results

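The genes described here make sterols and fatty acids or control their synthesis. They are 32 of the 17606 genes measured: 18 enzymes of the sterol pathway, 6 sterol regulators and carriers, 3 enzymes of fatty acid synthesis, and 5 desaturases and elongases. A gene entered by its name on the array, with Msmo1 carried there under the older name Sc4mol. The list of names was chosen with earlier results of these data known, so its counts beside those of all genes are descriptive. All 32 had a probe that passed the filter on dim probes, and 62 probes on the array belonged to them.

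RNA came from mouse mononuclear phagocytes, in 12 groups with 3 arrays each. Bone marrow monocytes sorted as CD11b+ Ly6C+ Ly6G- were either used directly (monocytes) or grown for 7 days, and any stimulus was added on day 6 for 24 h. Cultures with 10% fetal calf serum and 20 ng/ml M-CSF carry the labels M0 (no stimulus), M2a (20 ng/ml IL-4), M2c (dexamethasone at 1e-07 M), IFN-γ macrophages (25 ng/ml IFN-γ) and M1 (the same IFN-γ with LPS, labelled as 100 µg/ml). M2b cells had the same medium and IFN-γ on dishes coated with human immunoglobulin at 1 mg/ml, and Mo-DC had 20 ng/ml GM-CSF with 20 ng/ml IL-4 in place of M-CSF and then IFN-γ. Mreg, the regulatory macrophages of the study, grew with 5 ng/ml M-CSF and 10% human AB serum beside the calf serum and then had 25 ng/ml IFN-γ. Mreg no IFN-γ went without the stimulus, Mreg +LPS had IFN-γ with LPS, and Mreg unpurified began from adherent mononuclear cells of marrow, spleen and blood. The labels number the arrays of a group 1 to 3 but do not say whether they came from separate mice, so p-values measure the spread between these arrays, which may be technical.

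Cells build cholesterol from acetyl-CoA by way of mevalonate, isoprenoid units, squalene and lanosterol, and they build fatty acids from the same acetyl-CoA by way of malonyl-CoA. Many of the enzymes are transcribed under the sterol regulatory element-binding proteins, which the escort protein SCAP takes to the Golgi for cleavage when membrane sterol is low and which INSIG proteins hold back in the endoplasmic reticulum when it is high. In macrophages these pathways supply membrane for growth and phagocytosis, and their output is known to shift with inflammatory stimuli.

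All levels below are log2 signal minus the log2 of the 75th percentile of the same array, so a value of 0 is that percentile. They compare a gene between groups, not genes with each other. The 75th percentile was 338 to 696 signal units, the share of probes flagged well above background ran from 50.4% to 57.7%, 0 spots were saturated, and replicate arrays of a group correlated at 0.981 to 0.993. All 4 macrophage marker genes were well above background on every array of the 11 cultured groups, and the monocytes had 3 of 4. Summed granulocyte precursor genes were 1647 to 2212 times the percentile in the monocytes. The 10 cell cycle genes summed to 213 to 339 times the percentile in monocytes, 38.5 to 47.6 in M0, 39.8 to 46.0 in IFN-γ macrophages and 3.04 to 3.16 in M1. In bulk RNA, fewer cells of a kind and less RNA per cell cannot be told apart.

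Across the 12 groups no 1 group was highest for most of these genes. M2a had the highest mean for 13 of the 32 genes, while Mreg +LPS had the lowest for 14 and M1 for 7, so an LPS-treated group was lowest for 21. The spread between groups differed widely among the genes. Srebf1, the transcription factor known for fatty acid genes, spanned only 1.42-fold between its highest group, M0, and its lowest, Mo-DC. Nsdhl, a sterol dehydrogenase, spanned 1.50-fold. Sqle, the squalene epoxidase that commits squalene to sterols, spanned 21.7-fold between M2a and Mreg +LPS, and Idi1, the isomerase that makes the second isoprenoid unit, spanned 12.6-fold between the same groups. Among the fatty acid genes, Fasn, the fatty acid synthase, spanned 11.2-fold from M2a to Mreg +LPS, and Scd2, a stearoyl-CoA desaturase, spanned 42.8-fold from Mo-DC to Mreg +LPS.

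**Figure D1:**
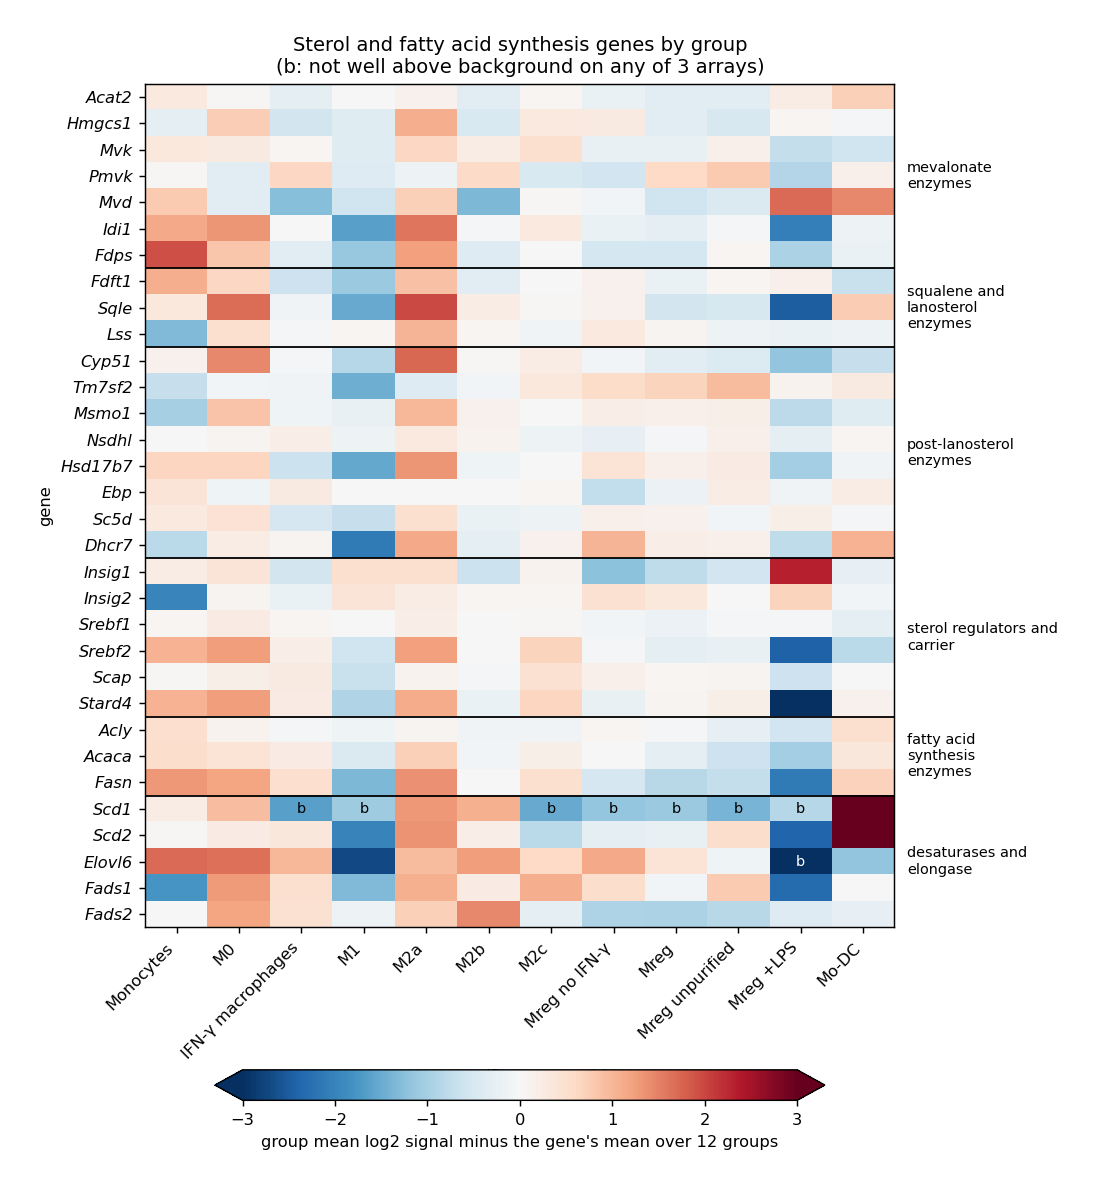
Each cell shows the mean log2 signal of 3 arrays for 1 gene (rows, grouped by role) in 1 group (columns), minus that gene's mean over the 12 groups; red is higher, blue lower, and b marks a group in which no array was well above background. M2a is mostly red, with the highest mean for 13 genes, and Mreg +LPS and M1 are mostly blue, with the lowest for 14 and 7, while Insig1 and Mvd are red in Mreg +LPS.

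The order of the groups is given in full for Sqle. It read 1.82, 2.48 and 2.44 on the 3 M2a arrays, which overlapped the 2.04, 1.88 and 1.90 of M0. Mo-DC followed at 0.93, 0.98 and 1.19, below every M0 array. M1 read −0.75, −1.38 and −1.57, and Mreg +LPS −1.99, −2.03 and −2.55, so the LPS-treated groups lay lowest and did not overlap each other. The remaining 7 groups had Sqle values between −0.68 and 0.89.

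The likeness of the genes over the groups is described here without a test, by Pearson's r over the 12 group means, which share arrays and scaling. The enzymes most like the rest of the sterol enzymes were Sqle (median r 0.58 with the other 17), Hsd17b7 (0.58), Cyp51 (0.57) and Idi1 (0.53). Hsd17b7 reduces a sterol ketone and Cyp51 removes a methyl group from lanosterol. Among the genes outside the 18 enzymes, Fads1, a fatty acid desaturase, was the most like them at 0.48. Insig1 (−0.17) and Insig2 (−0.25), the proteins that hold back the pathway's activators, were the least like them. Mvd, which makes isopentenyl diphosphate, stood at 0.0047 although it is an enzyme of the same chain. It shared this with other enzymes of the 18: Ebp stood at −0.0065, Tm7sf2 at 0.037 and Acat2 at 0.061.

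The promoters of 6 genes that the comparisons below turn on are printed because they show which regulatory letters lie before 4 enzymes that fell with IFN-γ in M-CSF culture (Hmgcs1, Idi1, Cyp51 and Hsd17b7) and before the pair that rose with LPS in both cultures (Mvd and Insig1). Sequences are from RefSeq on GRCm38.p6, each read 5′ to 3′ on the gene's strand and ending at the last base before the start site. Capitals mark matches to TCACNCCAC, a sterol regulatory element, to CCAAT, the box bound by NF-Y, which works beside the sterol factors, and to CACGTG, an E box, on either strand.
Hmgcs1 (chr13:119690101-119690350, + strand): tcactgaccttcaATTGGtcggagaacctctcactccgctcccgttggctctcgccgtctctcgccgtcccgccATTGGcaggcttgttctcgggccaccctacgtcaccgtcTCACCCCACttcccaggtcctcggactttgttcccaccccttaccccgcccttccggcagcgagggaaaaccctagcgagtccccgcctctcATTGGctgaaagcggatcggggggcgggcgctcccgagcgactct
Idi1 (chr13:8885541-8885605, + strand): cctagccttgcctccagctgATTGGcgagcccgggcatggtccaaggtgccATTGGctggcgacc
Cyp51 (chr5:4104698-4104746, − strand): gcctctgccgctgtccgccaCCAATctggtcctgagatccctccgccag
Hsd17b7 (chr1:169969206-169969390, − strand): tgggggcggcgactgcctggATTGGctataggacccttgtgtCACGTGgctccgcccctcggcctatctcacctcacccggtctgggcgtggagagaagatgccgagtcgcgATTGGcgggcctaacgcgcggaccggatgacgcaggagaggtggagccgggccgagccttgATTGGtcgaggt
Mvd (chr8:122443423-122443502, − strand): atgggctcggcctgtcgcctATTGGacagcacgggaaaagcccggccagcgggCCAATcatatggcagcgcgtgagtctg
Insig1 (chr5:28071176-28071411, + strand): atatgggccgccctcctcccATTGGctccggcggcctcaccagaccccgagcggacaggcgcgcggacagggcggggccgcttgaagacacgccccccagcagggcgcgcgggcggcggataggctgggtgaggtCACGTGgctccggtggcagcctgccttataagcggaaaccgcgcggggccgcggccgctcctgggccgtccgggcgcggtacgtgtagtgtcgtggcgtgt

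Of the 32 genes, 25 matched the promoter table, in windows of 250 bases before and 50 after each start site. Sqle, Fdft1, Fdps, Stard4, Scd1, Scd2 and Fads1 had no entry. CCAAT stood in at least 1 window of 20 of the 25 matched genes (80.0%), against 41.1% of the 27025 genes in the table. It does not mark the genes that fell with IFN-γ in M-CSF culture. It also stood in Pmvk and Ebp, which rose there, and in Mvk, Nsdhl and Tm7sf2, which passed in neither direction. In the stretches shown, Hmgcs1, which condenses the precursor of mevalonate, and Hsd17b7 held 3 such boxes each, Idi1 and Mvd 2 each, and Cyp51 and Insig1 1 each. The sterol element as spelled was found in 1 of 25 genes, Hmgcs1 (1.44% of all genes), and the E box in 5 of 25, Dhcr7, Hsd17b7, Insig1, Sc5d and Scap (8.09% of all genes). One pair of matches shared bases, a CCAAT and its reverse in Fasn. A match describes letters in this window and is no site or cause.

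IFN-γ in M-CSF culture went with lower transcripts of most sterol enzymes. Of the 18 sterol enzymes, 11 fell and 2 rose between M0 and IFN-γ macrophages, with a median log2 difference of −0.94. Over all 32 genes, 17 fell and 2 rose, against 22.2% of all genes called in either direction (10.8% higher and 11.4% lower), and the median difference was −0.70 against −0.022 for all genes. Calls are by limma at an adjusted p below 0.05.

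The falls lay both before and after squalene: 4 of 7 mevalonate enzymes, 3 of 3 squalene and lanosterol enzymes and 4 of 8 later enzymes fell. Sqle read 2.04, 1.88 and 1.90 in M0 and 0.13, 0.19 and 0.20 in IFN-γ macrophages, without overlap. The difference was −1.77 ± 0.23 (SE), a 3.41-fold fall with adjusted p = 1.4e-06. Fdft1, the squalene synthase, read 0.60, 0.56 and 0.60 in M0 and −0.67, −0.61 and −0.66 with IFN-γ, a tight separation of −1.24 ± 0.13. A further Fdft1 probe moved by −0.17, in the same direction but far less. Idi1 went from 1.81, 1.83 and 1.87 to 0.64, 0.51 and 0.36, a fall of 2.52-fold that its further probe shared at −1.77. The array's annotation places both Idi1 probes on chromosome 2, unlike the promoter on chromosome 13 printed above. This mismatch was not resolved, so the Idi1 values rest on the array's gene name. Hmgcs1 went from 3.22, 3.41 and 3.38 to 1.90, 2.15 and 2.05, which is 2.46-fold lower with no overlap. Fdps, the farnesyl diphosphate synthase that feeds squalene synthase, fell 2.26-fold.

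After lanosterol, Cyp51 read 0.50, 0.46 and 0.57 in M0 and −1.05, −0.995 and −0.86 with IFN-γ, 2.79-fold lower with adjusted p = 3.9e-06. Its 3 probes moved alike, by −1.48, −1.35 and −1.43. Hsd17b7 fell 2.43-fold, from −0.48, −1.08 and −1.15 to −2.25, −2.02 and −2.28. Msmo1, a sterol methyl oxidase, and Sc5d, a sterol desaturase, fell by 0.97 and 0.95 on the log2 scale. Lss, which closes squalene epoxide into lanosterol, fell by 0.52.

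Of the 6 regulators and carriers 3 fell and none rose. Srebf2, the factor known for sterol genes, read 4.49, 4.62 and 4.55 in M0 and 3.28, 3.63 and 3.52 with IFN-γ, a 2.10-fold fall that all 4 of its probes shared, by −0.67 to −1.07. Stard4, a sterol transfer protein, fell 2.02-fold, from −0.23, −0.52 and −0.62 to −1.33, −1.35 and −1.73, with adjusted p = 0.017. Insig1 fell by 0.94. Srebf1, Scap and Insig2 (−0.28) did not pass.

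Pmvk, the phosphomevalonate kinase, went the other way: it read 2.53, 2.51 and 2.59 in M0 and 3.53, 3.59 and 3.33 with IFN-γ, a rise of 0.94 ± 0.16 with adjusted p = 4.3e-05. Ebp, a sterol isomerase, rose by 0.40. Among the fatty acid genes Fasn fell by 0.68 and Fads1 by 0.79, while Acly and Acaca, the enzymes that make cytosolic acetyl-CoA and malonyl-CoA, did not pass. Scd1, a stearoyl-CoA desaturase, was well above background on 1 of 3 M0 arrays and on none with IFN-γ. It was 1.70-fold lower there, where the dim group's mean is set at the lowest signal counted as above background. The M0 mean includes arrays not well above background, so this is no strict lower bound. The adjusted p of 0.0052 is that of the fitted difference, as for all folds set this way. Under normexp background correction the Scd1 adjusted p was 0.070.

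Genes next to the pathway did not move as a block, in a comparison where 22.2% of all genes were called. Of 10 measured genes of an isoprenoid list, 3 rose and none fell. Pdss1, which builds the ubiquinone tail, rose by 1.26, Coq2 of the same route by 0.78 and Ggps1 by 0.30. The list also holds the proteases that release the sterol factors, Aacs, and Lbr, which is a sterol reductase and no isoprenoid gene. Of 16 genes of fatty acid supply and activation, 4 rose and 4 fell, with Acsl3 down by 1.67, Lpin1 down by 1.48 and Acsl1 up by 1.30. Of 14 genes of sterol export and oxysterols, 4 rose and 6 fell. Ch25h, which makes 25-hydroxycholesterol, an oxysterol known to suppress processing of the sterol factors, rose by 8.28 ± 1.12 (SE), with 2 of 3 M0 arrays above background. None of the 10 cell cycle genes was called. Of 4 monocyte markers 2 rose and 1 fell, with sums of 205 to 235 times the percentile against 13.4 to 27.5 in M0, and their part was not tested. M0 and IFN-γ macrophages were on different slides, so slide and group cannot be told apart in this comparison.

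In Mreg culture the count of changed genes with IFN-γ was near the background. Between Mreg no IFN-γ and Mreg, 5 of 32 fell and 2 rose, against 20.4% of all genes called (9.50% higher and 10.9% lower), and the median difference was −0.10 against −0.064 for all genes. Pmvk read 2.37, 2.20 and 2.35 without IFN-γ and 3.67, 3.32 and 3.42 with it, a 2.24-fold rise (1.16 ± 0.16, adjusted p = 3.2e-06). It is the only one of the 32 past 2-fold here. Ebp rose by 0.56. Sqle fell by 0.69, Hmgcs1 by 0.60 and Mvd by 0.53 among the sterol enzymes, and Elovl6, a fatty acid elongase, fell by 0.74 and Fads1 by 0.60. A dim Hmgcs1 probe moved by 0.15, against the other 2.

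The count of 7 in Mreg culture was 3 without Mreg replicate 1, 4 without Mreg replicate 3, 4 from a fit of these 2 groups alone and 1 on the arrays of 1 scan day. Of the cell cycle genes 10 of 10 rose with IFN-γ in this culture, by a median of 1.72, and their sum went from between 7.32 and 11.7 to between 26.3 and 40.4 times the percentile. Of 4 monocyte markers 3 rose, from sums of 3.89 to 18.3 to sums of 46.1 to 199.5. Their part in the result was not tested. Of the neighbouring genes, Ch25h was 8.46-fold higher with the dim group's mean set as for Scd1 above, on 2 of 3 Mreg arrays above background. Abca1, a cholesterol exporter, fell by 2.01, and Mylip, which degrades lipoprotein receptors, fell by 0.91. The export list had 4 genes higher and 4 lower of 14, where 20.4% of all genes were called. The isoprenoid list had 3 higher and 1 lower of 10, with Pdss1 up by 1.21, Lbr by 0.89 and Coq2 by 0.54. The fatty acid supply list had 4 lower of 16, with Me1 down by 1.24, Acsl3 by 1.12 and Lpin1 by 0.92.

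**Figure D2:**
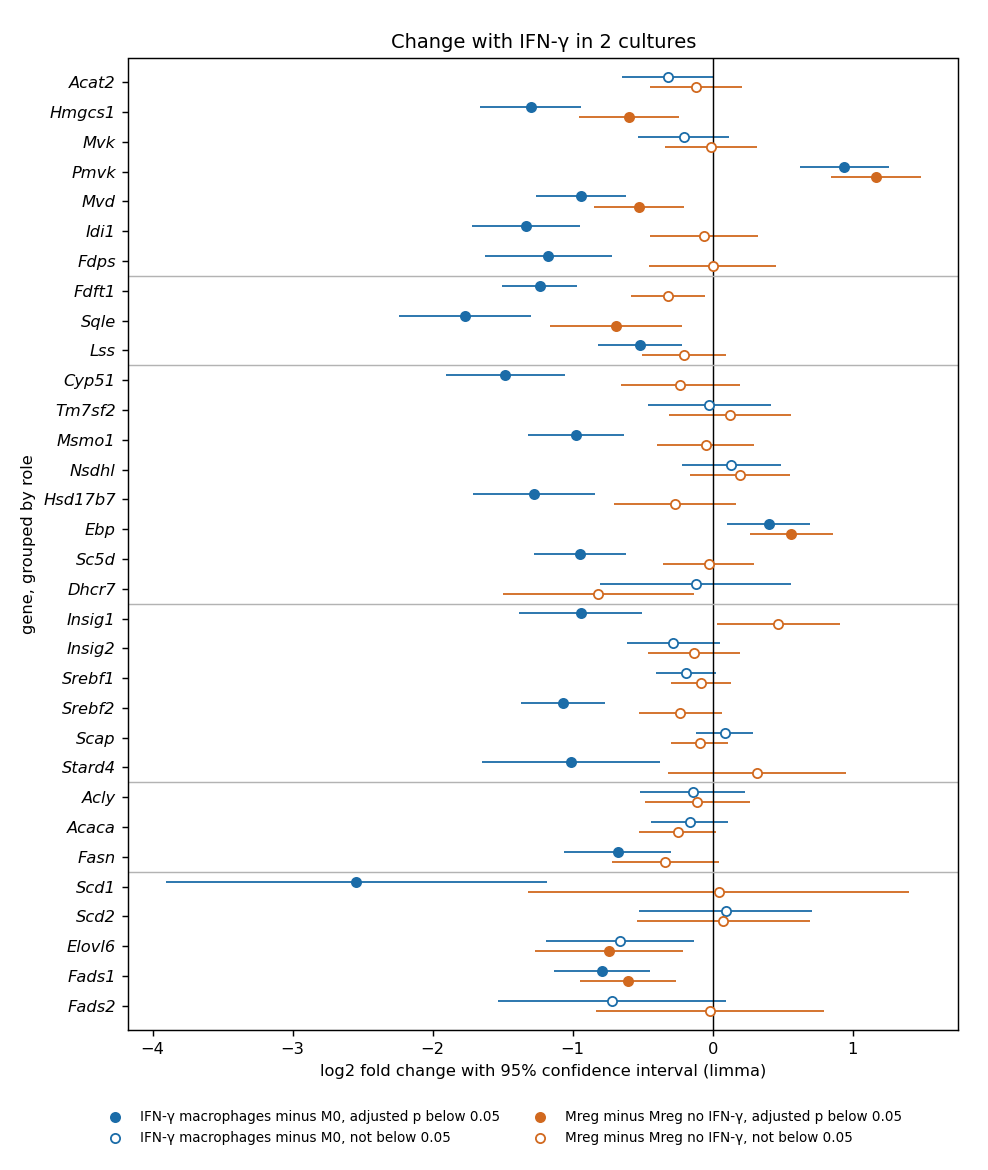
The points are the log2 fold changes of the 32 genes with IFN-γ in M-CSF culture (blue) and in Mreg culture (orange), with 95% confidence intervals from limma; filled points passed an adjusted p of 0.05. Blue points for Sqle, Cyp51, Idi1 and Hmgcs1 lie between −1.77 and −1.30 with the orange ones nearer to 0, and Pmvk lies to the right of 0 in both.

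The difference between these IFN-γ responses was itself tested. Of the 32 genes 7 passed, all in the direction of a smaller fall or a rise in Mreg culture, against 1.64% of all genes called in either direction, 1.23% higher and 0.409% lower. The median difference was 0.33 over the 32 and −0.045 over all genes. Insig1 differed most, by 1.41 ± 0.30 (adjusted p = 0.013). It went from −1.64, −1.41 and −1.45 to −2.50, −2.39 and −2.45 in M-CSF culture and from −3.02, −3.30 and −3.04 to −2.47, −2.87 and −2.60 in Mreg culture, a fall in the former and a difference of 0.47 that did not pass in the latter. Idi1 differed by 1.27 ± 0.27 (adjusted p = 0.012), since it read 0.58, −0.08 and 0.40 without and 0.36, 0.04 and 0.31 with IFN-γ in Mreg culture, where the groups overlapped. Cyp51 differed by 1.25, Msmo1, Sc5d and Fdft1 by 0.92 each and Srebf2 by 0.84.

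The further Fdft1 probe gave −0.21 in place of 0.92. The mean levels of all 7 without IFN-γ were lower in Mreg no IFN-γ than in M0. The count of 7 fell to 3 or 4 without any 1 of IFN-γ macrophage replicates 1, 2 or 3, M0 replicates 1 or 3, Mreg replicates 1 or 3 and Mreg no IFN-γ replicates 1 or 2. It was 1 under normexp background correction and 1 on 1 scan day, with the sign kept for all 7. The cell cycle genes differed as well, 4 of 10 called higher with a median of 1.72, and their part was not tested. M0 and IFN-γ macrophages were on different slides, whereas Mreg and Mreg no IFN-γ shared slides. Slide and culture therefore cannot be told apart in this difference.

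Added LPS went with a broad fall of sterol and fatty acid genes and a rise of Insig1 and Mvd. On IFN-γ macrophages 18 of the 32 fell and 3 rose, where 51.0% of all genes were called, 27.1% higher and 23.9% lower. The median difference was −0.64, against 0.11 for all genes. M1 and IFN-γ macrophages were on different slides, so slide and added LPS cannot be told apart in M-CSF culture. On Mreg 18 fell and 4 rose, where 57.3% of all genes were called, 31.6% higher and 25.7% lower, with a median of −0.55 against 0.16.

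Of the 5 desaturases and elongases 3 fell in each culture, Elovl6, Scd2 and Fads1. Elovl6 read −1.24, −1.18 and −1.24 in IFN-γ macrophages and −4.80, −5.18 and −4.76 in M1, where 1 of 3 arrays was well above background, a difference of −3.69 ± 0.26 with adjusted p = 4.9e-12. In Mreg it read −1.70, −1.99 and −1.73 and with LPS no array had it well above background, at least 9.94-fold lower. Under normexp the Elovl6 differences were −1.51 and −0.99, still called. Scd2 went from 3.24, 3.10 and 2.85 to 1.25, 0.42 and 0.45 in M-CSF culture (5.12-fold) and from 2.44, 2.63 and 2.41 to 0.24, 0.48 and 0.28 in Mreg culture (4.47-fold). No arrays overlapped in either. Fads1 fell 3.49-fold and 4.75-fold, and Fasn 3.62-fold and 2.44-fold, in the same order. Scd1 was not well above background on any of these arrays, so it has no fold, and Fads2 did not pass (−0.61 and 0.56). Acaca fell by 0.67 and 0.75, but its dimmer probes moved the other way, by 0.74 and 0.51 in Mreg.

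Among the sterol enzymes, Sqle fell from 0.13, 0.19 and 0.20 to −0.75, −1.38 and −1.57 in M-CSF culture, a difference of −1.41 ± 0.23, and from −0.09, −0.48 and −0.28 to −1.99, −2.03 and −2.55 in Mreg culture, −1.91 ± 0.23. Idi1 fell 3.07-fold and 3.44-fold in these cultures. Pmvk fell 2.00-fold and 2.76-fold with LPS. Dhcr7, the last reductase of the pathway, read 2.09, 2.15 and 1.97 in IFN-γ macrophages and −0.24, −0.0017 and −0.17 in M1, a 4.63-fold fall. In Mreg culture Dhcr7 fell by 0.97, with overlapping arrays. Tm7sf2, a sterol reductase, fell 2.57-fold in M-CSF culture and 1.49-fold in Mreg culture.

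Mvd and Insig1 rose with LPS in both cultures, where most of the 32 genes fell. Insig1 read −2.47, −2.87 and −2.60 in Mreg and 0.93, 0.25 and 0.11 with LPS, a rise of 3.08 ± 0.21 (8.44-fold, adjusted p = 3.0e-12), and its further probe rose by 2.96. In M-CSF culture it rose 2.04-fold, from −2.50, −2.39 and −2.45 to −1.32, −1.38 and −1.54. Mvd read 0.12, 0.51 and 0.20 in Mreg and 2.91, 2.41 and 2.42 with LPS, a rise of 2.30 ± 0.16 (4.93-fold, adjusted p = 1.8e-12), and it rose by 0.68 in M-CSF culture. Fdft1 and Acat2, an acetoacetyl-CoA thiolase, rose by 0.35 and 0.52 in Mreg culture, and Insig2 by 0.58 in M-CSF culture.

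Stard4 read −1.29, −2.00 and −1.63 in Mreg and −4.38, −5.51 and −5.27 with LPS, where 2 of 3 arrays were well above background. The difference was −3.42 ± 0.31, its other probes fell by 2.44 and 2.04, and under normexp it was −1.20. In M-CSF culture Stard4 fell by 1.16. Srebf2 by its brightest probe read 3.04, 2.83 and 3.18 in Mreg and 0.85, 0.82 and 0.93 with LPS, a fall of 2.15. Its other probes gave −0.47, 0.43 and −0.37, so the size of the Srebf2 change depends on the probe, and in M-CSF culture the probes ran from −0.79 to 0.54. Scap fell by 0.94 and 0.66.

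**Figure D3:**
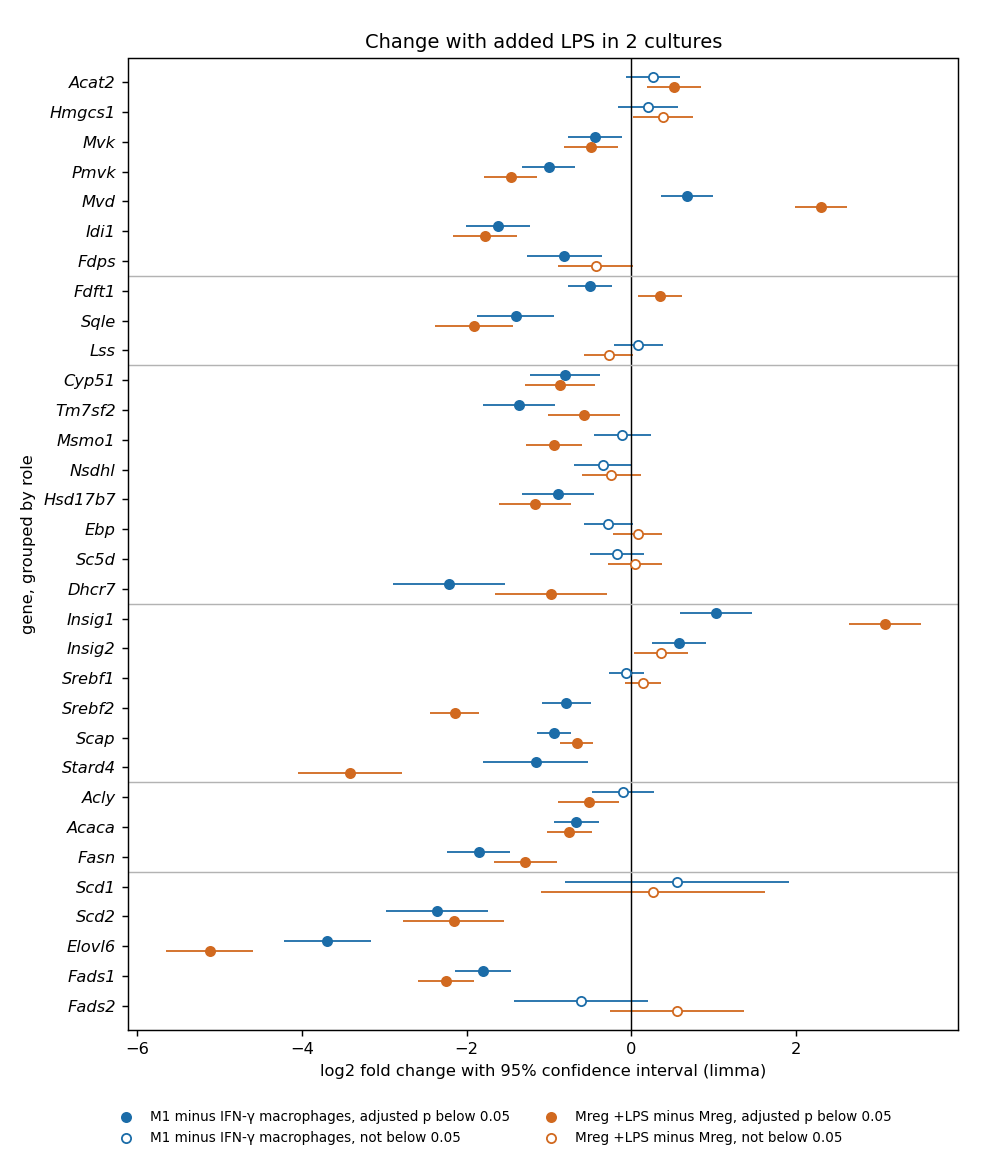
The points are the log2 fold changes of the 32 genes when LPS was added to IFN-γ in M-CSF culture (blue) and in Mreg culture (orange), with 95% confidence intervals from limma; filled points passed an adjusted p of 0.05. Most points lie left of 0, Elovl6 lies at −3.69 in M-CSF culture, its point in Mreg culture is a fitted value of a gene below background with LPS and stands only for at least 9.94-fold, and Insig1 and Mvd in Mreg culture lie at 3.08 and 2.30.

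The difference between the LPS responses passed for 9 of 32 genes, 5 more positive and 4 more negative in Mreg culture, where 35.0% of all genes were called, 18.8% higher and 16.2% lower. Insig1 (2.05 ± 0.30) and Mvd (1.63 ± 0.22) rose more on Mreg. Dhcr7 (1.24), Fdft1 (0.85) and Tm7sf2 (0.79) were more positive there, and Stard4 (−2.25), Srebf2 (−1.35) and Msmo1 (−0.83) more negative. For Elovl6 the difference of −1.43 turned to 0.52 under normexp background correction, and for Stard4 it shrank to −0.50 (adjusted p = 0.25), both being near or below background with LPS in Mreg culture. For Srebf2 the other probes gave −0.41, −0.10 and 0.41. Of the 10 cell cycle genes 10 fell with LPS in M-CSF culture (median −5.23) and 8 in Mreg culture (median −1.45). Ccnb1, Bub1 and Rrm2 were well above background on none of the M1 arrays, so the fitted values behind the −5.23 include genes below background. Of 4 dendritic cell markers 3 rose in M-CSF culture, from sums of 0.072 to 0.149 to sums of 0.588 to 2.55, and 2 in Mreg culture, from 0.058 to 0.068 up to 0.208 to 1.94, with Cd209a above background on none of these arrays. Of 4 monocyte markers 1 rose and 2 fell in each culture, and 2 and 3 of 4 macrophage markers rose. The part of these markers in the results was not tested. M1 and IFN-γ macrophages were on different slides, whereas the Mreg groups shared slides, so slide and culture cannot be told apart in the difference.

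Neighbouring genes also changed with LPS. In the fatty acid supply list 7 rose and 3 fell of 16 in M-CSF culture, with the acyl-CoA synthetase Acsl1 up by 3.67, malic enzyme Me1 by 3.58 and Acss2, an acetyl-CoA synthetase, by 1.97. In Mreg culture 5 rose and 5 fell, with Acsl1 up by 2.77, Acsl4 down by 2.21 and Mid1ip1 down by 1.39. Of the export and oxysterol list, 7 rose and 5 fell of 14 in M-CSF culture and 8 rose and 1 fell in Mreg culture, counting Cyp7b1, which was well above background on none of these arrays. Nr1h3, a receptor known to respond to oxysterols, rose by 3.40 and 2.39. Cyp27a1, a sterol hydroxylase, fell by 3.22 in M1, with 2 of 3 arrays above background, and Mylip rose by 1.85. In Mreg culture Scarb1 fell by 1.74 and Abca1 rose by 1.53. Of the isoprenoid list, 5 of 10 fell and 1 rose in M-CSF culture, with Lbr down by 1.33, Coq2 by 1.17 and Mbtps1 by 0.98, and 8 fell and 1 rose in Mreg culture, with Lbr down by 2.23, Pdss1 by 2.00 and Fnta by 1.69.

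IL-4 went with higher values for a few of these genes. Between M0 and M2a 4 of 32 rose and none fell, against 12.3% of all genes called (6.36% higher and 5.94% lower), so the count is near the background. Of the 18 sterol enzymes 17 had a positive difference, with a median of 0.27 against 0.053 for all genes, but only Mvd, Hsd17b7 and Lss passed. On number 1, 8 of the 18 were negative (Acat2, Idi1, Fdps, Sqle, Cyp51, Tm7sf2, Msmo1 and Sc5d), so the positive sign rests on numbers 2 and 3 for these genes other than Tm7sf2, which was negative on all 3. Mvd read 0.69, 0.36 and 0.58 in M0 and 1.79, 1.46 and 1.56 in M2a, without overlap, a rise of 1.06 ± 0.16 (2.08-fold, adjusted p = 2.8e-05). Hsd17b7 rose by 0.69 and Lss by 0.54.

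Scd2 went from 3.21, 2.75 and 2.95 in M0 to 3.31, 4.35 and 4.57 in M2a, a rise of 1.105 ± 0.30 in which M2a replicate 1 lay far below the other 2. Sqle, highest in M2a by its mean, differed by 0.30 with a 95% interval of −0.17 to 0.78 and adjusted p = 0.46. The count of 4 was 1 without M0 replicate 2, 2 without M2a replicate 2 or 3, 2 with all probes of a gene averaged and 1 from a fit of these 2 groups alone. All 10 cell cycle genes fell with IL-4, with a median of −1.92 and sums of 11.2 to 14.3 times the percentile in M2a, and their part was not tested. Of the export list Abca1 fell by 2.16 and Mylip by 1.13 and Abcg1, a further exporter, rose by 0.63, of 1 higher and 2 lower. The fatty acid supply list had Elovl1 higher by 0.50 and Mid1ip1 lower by 0.72, and the isoprenoid list had Lbr lower by 1.06. These list counts stand beside 12.3% of all genes called.

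Dexamethasone, a synthetic glucocorticoid, went with lower sterol and desaturase transcripts. Between M0 and M2c 15 of 32 fell and 1 rose, against 20.4% of all genes called (10.4% higher and 10.0% lower), and the median was −0.52 against 0.033. Sqle read 0.50, 0.22 and 0.17 in M2c, all below M0, a 3.13-fold fall (−1.64 ± 0.23, adjusted p = 7.5e-06). Cyp51 read −0.64, −0.75 and −0.71, 2.32-fold lower, and Idi1 1.06, 0.66 and 0.66, 2.06-fold lower. None of these overlapped M0. The falls reached 3 of 3 squalene and lanosterol enzymes and 4 of 8 later enzymes, but 2 of 7 mevalonate enzymes, Idi1 and Fdps.

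Of the 5 desaturases and elongases 4 fell. Fads2, the desaturase that opens polyunsaturated synthesis, read −2.53, −2.53 and −1.67 in M0 and −4.04, −3.66 and −3.44 in M2c, 2.77-fold lower. Elovl6 read −0.34, −0.67 and −0.66 and then −1.50, −1.93 and −1.45, 2.09-fold lower. Scd2 went to 2.12, 1.37 and 2.24, also 2.09-fold lower. Scd1 was 1.54-fold lower with the dim group's mean set as above, with 1 of 3 M0 arrays and no M2c array above background, a call lost under normexp. Scap, the escort protein, rose by 0.28 and is the only one of the 32 called higher. In all, 6 of the 32 had a positive difference, up to 0.39. Fdft1 and Lss fell by 0.60 and 0.59 by their brightest probes, while a further probe of each gave 0.12 and 0.012. Of 10 cell cycle genes 9 fell (median −1.20). Of 4 monocyte markers 2 rose and 1 fell, with sums of 76.6 to 94.5 times the percentile against 13.4 to 27.5 in M0, and 2 of 4 macrophage markers rose, with sums of 502 to 541 against 397 to 420. The part of these genes was not tested. M0 and M2c were on different slides, so slide and treatment cannot be told apart.

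Around the pathway, 3 of 10 genes of the isoprenoid list fell with dexamethasone and none rose. They were Pdss1 (−1.09), Mbtps2 (−0.75), a protease that releases the sterol factors, and Aacs (−0.35). Of the supply list 3 rose and 3 fell, with Lpin1 up by 1.52, Me1 down by 1.20 and Mid1ip1 down by 1.11. Among all genes 20.4% were called with dexamethasone. Of the export list Cyp27a1 rose by 1.25 and Npc1, a lysosomal cholesterol transporter, by 0.49, while Lipa, the lysosomal lipase, fell by 0.75.

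**Figure D4:**
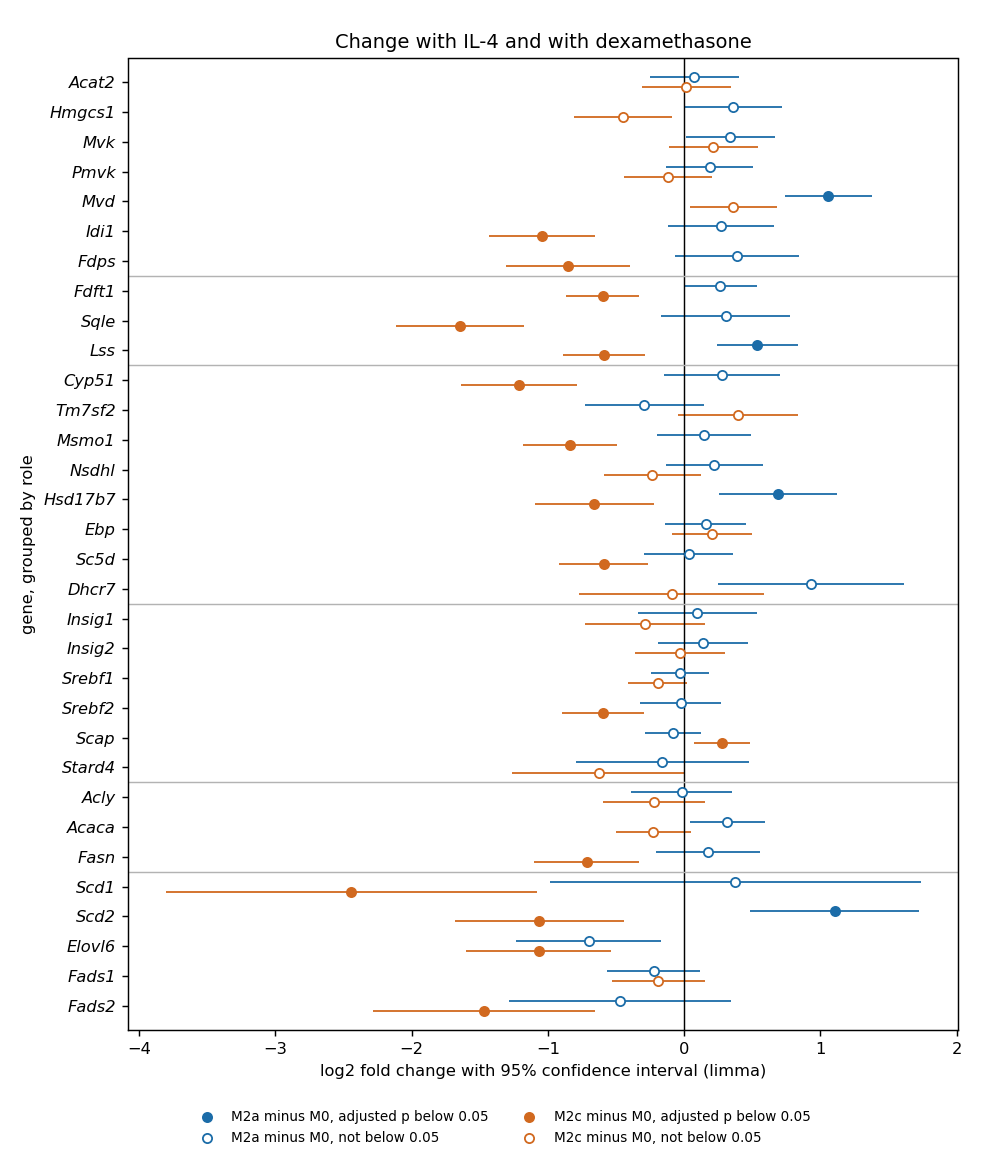
The points are the log2 fold changes of the 32 genes with IL-4 (blue, M2a minus M0) and with dexamethasone (orange, M2c minus M0), with 95% confidence intervals from limma; filled points passed an adjusted p of 0.05, and both comparisons use the same M0 arrays. Mvd (1.06) and Scd2 (1.105) lie right of 0 with IL-4, and Sqle (−1.64), Fads2 (−1.47) and Cyp51 (−1.21) lie left of 0 with dexamethasone.

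The immunoglobulin coating changed 1 of these 32 genes, where 3.89% of all genes were called, 2.14% higher and 1.74% lower. Scd1 was well above background on 2 of 3 M2b arrays and none of the IFN-γ macrophage arrays. It was 1.89-fold higher with the dim group's mean set as above (adjusted p = 0.018 for the fitted difference). That call was absent without IFN-γ macrophage replicate 1 or 3, without M2b replicate 2 or 3, under normexp and where 18 arrays had to be above background. The median difference over the 32 genes was −0.039. Dhdds fell by 0.59, Abca1 by 1.31 and Cyp27a1 by 0.89, the 3 neighbouring genes called.

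Without IFN-γ, most of these genes were lower in Mreg medium. Against M0, Mreg no IFN-γ had 18 of 32 genes lower and 1 higher, where 31.2% of all genes were called, 17.8% higher and 13.4% lower, with a median of −0.49 against 0.067. Fads2 read −4.16, −4.21 and −4.70, against −2.53, −2.53 and −1.67 in M0, 4.33-fold lower, a call lost under normexp. Fasn read 2.20, 1.92 and 2.11, against 3.95, 3.66 and 3.66, 3.21-fold lower with adjusted p = 1.3e-07. Insig1, at −3.02, −3.30 and −3.04, was 3.07-fold lower and had its lowest group here. These values lie wholly below M0.

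Among the other genes past 2-fold, Idi1 was 2.90-fold, Sqle 2.89-fold, Cyp51 2.86-fold, Stard4 2.82-fold, Fdps 2.58-fold and Srebf2 2.47-fold lower. Scd1 was 1.64-fold lower with the dim group's mean set as above, with 1 of 3 M0 arrays above background, a call also lost under normexp. Tm7sf2 was the only gene called higher, by 0.63. Acaca (−0.41) and Fdft1 (−0.49) passed by their brightest probes but had probes of the opposite sign. Human serum, M-CSF dose and slide differ together between these groups and cannot be told apart. All 10 cell cycle genes were lower as well (median −2.19), as were 3 of 4 monocyte markers (median −3.12), which summed to 3.89 to 18.3 times the percentile against 13.4 to 27.5 in M0. Of 3 adipocyte markers 2 were higher, summing to 0.063 to 0.082 against 0.011 to 0.015, with 1 well above background on all 3 Mreg no IFN-γ arrays and Adipoq on none. The part of these genes in the result was not tested. Of the neighbouring lists, the isoprenoid list had 5 lower of 10, led by Lbr (−2.89) and Pdss1 (−1.52), where 31.2% of all genes were called. The supply genes had 6 higher and 2 lower of 16, led by Acss2 (2.88) and Acsl3 (−1.65), and the export genes 4 higher and 1 lower of 14, led by Abca1 (−1.34) and Npc1 (0.87).

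With IFN-γ in both media the split was even: 6 of 32 genes were higher and 6 lower in Mreg than in IFN-γ macrophages, where 27.7% of all genes were called, 14.7% higher and 13.1% lower. Fads2 (−4.53, −4.04 and −4.56 in Mreg) was 2.66-fold lower and Fasn (1.88, 1.59 and 1.75) 2.53-fold lower, without overlap in either. Hsd17b7 and Tm7sf2 were higher by 0.78 each, Mvd by 0.67 and Sc5d by 0.62. Fdft1 was higher by 0.43, with a further probe at −0.18, and the Fads2 call was lost under normexp. Sqle did not pass. These groups were on different slides, which cannot be told apart from the medium, and 3 of 10 cell cycle genes were lower (median −0.51), with their part not tested. Lbr (−1.87) and Pdss1 (−1.57) were again lower, Acss2 was higher by 1.78, and Ch25h was lower by 5.88, with 2 of 3 Mreg arrays above background.

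Over the 7 days in M-CSF culture, from monocytes to M0 10 of 32 genes rose and 5 fell, a count no higher than the background, where 63.4% of all genes were called, 30.1% higher and 33.3% lower. Fads1 read −1.58, −1.31 and −1.88 in monocytes and 1.52, 1.37 and 1.49 in M0, an 8.30-fold rise (adjusted p = 6.8e-15). Msmo1 rose 3.60-fold, from 3.13, 3.06 and 2.73 to 4.83, 4.76 and 4.87, and Lss 3.50-fold, from −1.83, −1.97 and −2.44 to −0.28, −0.36 and −0.19. Insig2 rose 4.14-fold, from −0.19, −0.91 and −0.42 to 1.65, 1.50 and 1.48. None of these overlapped.

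Sqle rose 2.55-fold, Cyp51 2.46-fold, Fads2 2.28-fold (a call lost under normexp), Dhcr7 2.02-fold and Hmgcs1 2.01-fold. Mvd fell 2.19-fold, from 1.45, 1.55 and 2.03, and Fdps 2.13-fold, from 3.65, 3.54 and 2.54 to 2.17, 2.06 and 2.23, although a dimmer Fdps probe moved by 0.62 the other way. Ebp (−0.52), Fdft1 (−0.46, with a further probe at 1.48) and Pmvk (−0.36) were the other falls. Tm7sf2 rose by 0.61. The monocyte arrays carried granulocyte precursor and erythroid genes, 6 of 6 and 3 of 3 well above background on all 3 arrays, and the 10 cell cycle genes fell (median −2.42). Their part in the result was not tested. Of the neighbouring genes Abca1 rose by 5.76, Nr1h3 by 4.61 and Lipa by 4.48, of 9 higher and 3 lower of 14. Dgat2 and Dgat1, which make triglyceride, fell by 6.77 and 2.48, and Me1 was at least 5.81-fold higher. Of the isoprenoid list 3 rose and 4 fell, led by the sterol reductase Lbr, down by 3.97, where 63.4% of all genes were called.

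With unsorted adherent cells as the start, Fads1 alone among the 32 genes passed. It read 0.13, 0.19 and 0.01 in Mreg and 0.65, 1.03 and 1.20 in Mreg unpurified, a rise of 0.85 ± 0.17 (adjusted p = 0.0015), where 11.9% of all genes were called, 6.49% higher and 5.36% lower. The median difference was 0.094 against 0.10. The count was 2 without Mreg replicate 1 and without Mreg unpurified replicate 3, 2 with all probes averaged, 3 with slides as a block and 0 from a fit of these 2 groups alone. Dhdds (0.78), Pdss1 (0.66) and Fntb (0.58) were the isoprenoid genes called higher, and Mylip was lower by 1.03.

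Mo-DC had the highest Scd1 and Scd2 of the 12 groups. Against IFN-γ macrophages, which also had IFN-γ, 10 of 32 genes were higher and 8 lower, where 47.6% of all genes were called, 22.1% higher and 25.5% lower. Scd1 read −0.88, −0.51 and −0.73 in Mo-DC and was not well above background on any IFN-γ macrophage array, at least 34.0-fold higher (adjusted p = 2.6e-09). Mo-DC is the only group in which Scd1 was above background on all 3 arrays. Scd2 read 5.68, 5.63 and 5.95, against 3.24, 3.10 and 2.85, 6.44-fold higher, and had its highest group here. Mvd read 2.20, 2.42 and 2.37, against −0.37, −0.37 and −0.45, 6.61-fold higher with adjusted p = 1.2e-13.

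Elovl6 read −3.64, −3.54 and −2.98 in Mo-DC and was 4.49-fold lower. Srebf2 was 2.00-fold lower, at 2.27, 2.33 and 2.84. Acat2 was higher by 0.99, Dhcr7 by 0.95, Sqle by 0.86 and Acly by 0.52, while Mvk, the mevalonate kinase, was lower by 0.65 and Srebf1 by 0.31. Cyp51, Fads1 and Sc5d passed with overlapping arrays, and Hmgcs1 rose by 0.51 with a dim probe at −0.58. The dendritic cell markers summed to 10.6 to 28.2 times the percentile in Mo-DC and 0.072 to 0.149 in IFN-γ macrophages, and their part in the result was not tested. Of these markers 2 of 4 were called higher and none lower, Cd209a was above background on no Mo-DC array, and 3 of 4 macrophage markers were lower. The 3 measured adipocyte markers were above background on none of the Mo-DC arrays, where they summed to 0.025 to 0.041, although 2 of 3 were called higher. Of the supply genes 7 of 16 were higher and 2 lower, led by Acacb (1.98), Lpin1 (1.59) and Mid1ip1 (−1.53). Of the export genes 1 was higher and 4 lower, led by Cyp27a1 (−2.01), Lipa (−0.87) and Soat1 (0.84). Of the isoprenoid list 1 was higher and 4 lower, led by Lbr (−1.98), Coq2 (−1.83) and Mbtps2 (−0.84). These list counts stand beside 47.6% of all genes called.

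**Figure D5:**
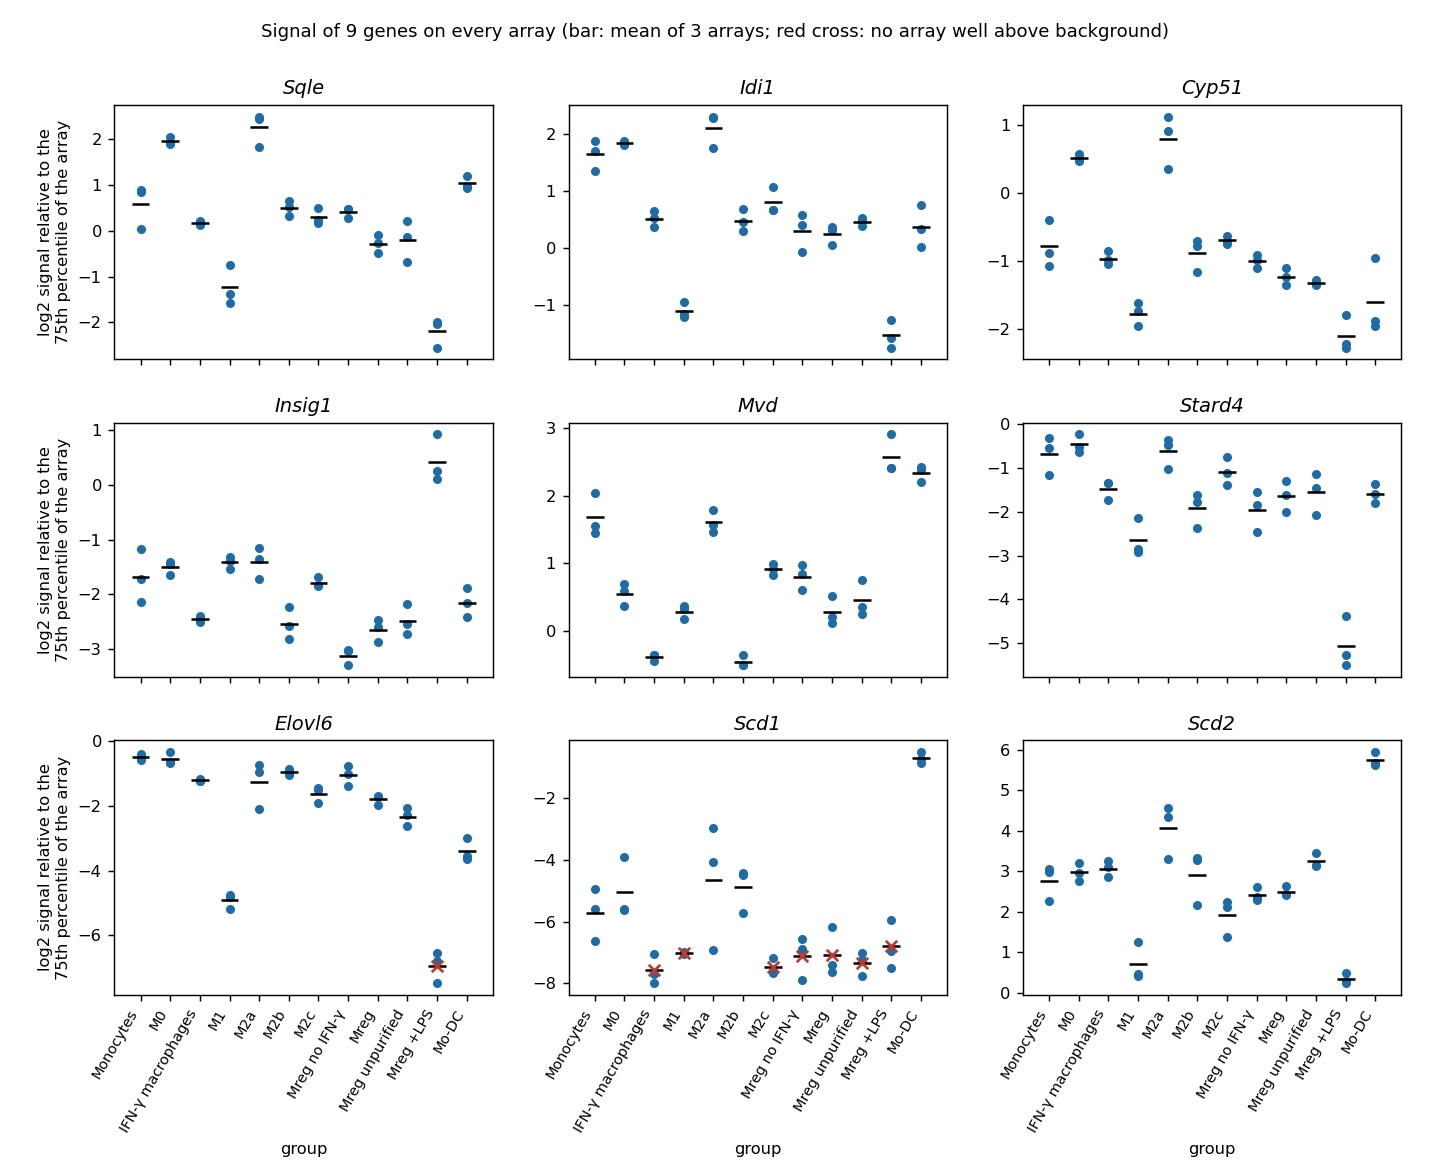
Each panel shows 1 gene, with a point for each array, the mean of 3 arrays as a bar and a red cross where no array of a group was well above background; the vertical axis is the log2 signal relative to the 75th percentile of the array. Sqle, Idi1 and Cyp51 are low in M1 and Mreg +LPS, Insig1 and Mvd are high in Mreg +LPS (means of 0.43 and 2.58), Stard4 and Elovl6 are lowest there, and Scd1 and Scd2 are highest in Mo-DC.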

How the data were processed

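RNA from 36 samples was hybridised to 1-colour Agilent arrays. The deposited intensities were background-subtracted and detrended within each array by Feature Extraction 10.5.1.1, per the file headers, with probe coordinates on mm8. The authors' deposited table of log2 values, normalised between arrays by a method not given in the sources used here, served as an alternative.

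Spots flagged as uneven or outlying were left out. The log2 of each processed intensity was taken relative to the 75th percentile of its array. A probe was used if 3 or more of the 36 arrays had it well above background (26478 of 41174), and each gene was represented by its brightest probe. The model, a mean for each group, was fitted to 17606 genes on all 36 arrays with limma 3.58.1 (R 4.3.3). Every adjusted p in the text is from limma with the Benjamini-Hochberg method within a comparison, two-sided, at 0.05. Errors of differences are standard errors with 3 arrays a group. Full values are given for genes called with at least a 2-fold change, and up to 3 of the largest called changes are named from each neighbouring list. The members and lists were chosen with earlier results of these data known.

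On simulated data with 17400 genes the fit recovered 54% of 50 genes changed by 1 on the log2 scale and 90% of 50 changed by 2. Only 121 genes were called there, against 3910 for IFN-γ in M-CSF culture in the data. The adjusted p threshold was thus stricter in the simulation, and its rates do not carry over to the data. The labels number the samples 1 to 3 in each group. Samples of the same number deviated together (r above 0.1 in every pair) for IFN-γ, LPS, IL-4, dexamethasone and the immunoglobulin coating. For the other comparisons r was above 0.1 in only some pairs and ran from 0.019 to 0.45. Alternatives tried were normexp background correction, quantile normalisation, the authors' table, other filters and probe rules, slide and number blocks, 1 scan day, fits of the compared groups alone and leaving out each array. The number of arrays limits the precision.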

Additional observations from a re-analysis of the deposited data

Results flagged for a closer look

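The responses to the same stimulus in Mreg and M-CSF culture differed by limma's interaction test (Mreg minus M-CSF, on the log2 scale) for 16 results, which have been described above. For IFN-γ 21.9% of the 32 genes passed, against 1.64% of all genes, but the count fell to as few as 1 under alternative processing. For LPS 28.1% passed, against 35.0% of all genes, so that count is no higher than the background. For IFN-γ the differences were 1.41 for Insig1, 1.27 for Idi1, 1.25 for Cyp51, 0.92 for Fdft1, 0.92 for Msmo1, 0.92 for Sc5d and 0.84 for Srebf2. For LPS they were 2.05 for Insig1, 1.63 for Mvd, 1.24 for Dhcr7, 0.85 for Fdft1, 0.79 for Tm7sf2, −0.83 for Msmo1, −1.35 for Srebf2, −1.43 for Elovl6 and −2.25 for Stard4. Insig1, Fdft1, Msmo1 and Srebf2 stand in both sets, which share the IFN-γ macrophage and Mreg arrays. In both sets the M-CSF groups compared were on different slides and the Mreg groups shared slides, so slide and culture cannot be told apart.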

How the results depend on the processing

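Of 1514 recomputed values of 87 gene results, 1397 kept direction and side of the threshold, 116 lost the call and 1 reversed: the Elovl6 difference of LPS responses was 0.52 under normexp. Causes were not tested.

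Counts of called genes that moved by over 1.5 times were as follows. Under normexp they were 1 for the difference of IFN-γ responses, 5 for that of LPS responses and 0 for the immunoglobulin coating. With no filter the difference of IFN-γ responses gave 4, and with a filter of 18 arrays the coating gave 0. With probes averaged, IL-4 gave 2 and unsorted cells 2. With slides as a fixed or random block the coating gave 2 and unsorted cells 3. Fits of the compared groups alone gave 4 for IFN-γ in Mreg culture, 1 for IL-4 and 0 for unsorted cells. One scan day gave 1 for IFN-γ in Mreg culture and 1 for the difference of IFN-γ responses. Leaving out 1 array gave 3 to 6 for IFN-γ in Mreg culture, 3 to 6 for the difference of IFN-γ responses, 1 to 4 for IL-4, 0 to 2 for the coating and 1 to 2 for unsorted cells. The replicate block on the sample number gave 2 for unsorted cells and moved no other count by over 1.5 times.

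Values of Scd1 outside Mo-DC, and of Elovl6 and Stard4 with LPS, lie near background, which limits their fold changes.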
